A study of Mus musculus with 2 samples.

Results

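The DEAD and DEAH box RNA helicases are the genes whose symbol is Ddx or Dhx followed by a number and at most 1 letter. Ddx58, Dhx58, Ddx3x and Ddx3y match that form and were left out by the rule that defines the set. The rule matched 49 of 55536 annotated genes, with 270 annotated transcripts, and used no measured value. Their RNA was read in the nuclear fraction of bone marrow derived macrophages from mouse strain C57BL/6J, to which 100 ng/ml Lipid A, a bacterial ligand of Toll-like receptor 4, had been given for 10 min. Libraries of total RNA were made after depletion of ribosomal RNA, from 1 µg of RNA in replicate 1 and 500 ng in replicate 2. The labels call the fraction nucleoplasmic in 1 field and nucleus in another, and they give the libraries as biological replicates of a single group, from separate biosamples of 1 donor identifier. Whether these came from separate animals is not stated, so the spread between them may be technical, and sex and age were not collected. Cells without Lipid A were not analysed here, so every value below is a level and none is a response to Lipid A.

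DEAD and DEAH box proteins are enzymes that bind RNA and use ATP to unwind short duplexes or to remodel complexes of RNA and protein. The families are named after the letters of a conserved motif that takes part in ATP hydrolysis. In the nucleus they drive the steps of the spliceosome, ribosome assembly in the nucleolus and mRNA export, and a few act mainly in mitochondria, in the cytoplasm or in germ cells.

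The libraries held 19153465 expected counts on annotated genes in replicate 1 and 11622346 in replicate 2, of which 99890 and 65426 fell on the helicases. All 8 macrophage markers examined were detected with summed levels of 3528 TPM in replicate 1 against 2191 TPM in replicate 2. TPM is the count divided by effective length and scaled to a fixed sum over the whole table, and a gene was called detected at 1 TPM or more in both libraries. None of 4 B cell, 5 T and NK cell and 6 fibroblast markers was detected. Of the other lists, 1 of 6 neutrophil markers (S100a8, 1.64 TPM), 1 of 4 erythroid markers (Alas2, 5.0 TPM) and 1 of 3 endothelial markers (Kdr, 4.93 TPM) was. The nuclear RNAs Malat1, Neat1 and Xist were all detected, and their sum was 21756 TPM in replicate 1, against 32546 TPM in replicate 2. In bulk RNA, fewer cells of a type and less RNA per cell cannot be told apart.

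Some annotated transcripts of these genes hold introns whole, and the bases at 4 such introns are shown first. They are examples and not the 4 at the highest transcript levels. The spliced form comes from the most abundant coding transcript of the gene. The other form comes from a transcript with the intron that is not annotated as protein-coding, and capitals mark intron bases. Each line has 20 bases on either side of the boundary, read 5′ to 3′ on the gene's strand from the GENCODE M21 transcripts, and coordinates are those of mm10.
Ddx5-201, exons 11 and 12 joined: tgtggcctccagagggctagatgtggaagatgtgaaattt
Ddx5-208, start of the intron at chr11:106782694-106783958, minus strand: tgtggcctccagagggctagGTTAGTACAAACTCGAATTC
Ddx5-208, end of the same intron: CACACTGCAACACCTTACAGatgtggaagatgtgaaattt
Dhx15-201, exons 9 and 10 joined: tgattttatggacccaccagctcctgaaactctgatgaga
Dhx15-204, start of the intron at chr5:52160422-52160892, minus strand: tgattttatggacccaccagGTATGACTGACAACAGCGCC
Ddx60-201, exons 34 and 35 joined: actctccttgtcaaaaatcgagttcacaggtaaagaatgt
Ddx60-203, start of the intron at chr8:62023298-62024848, plus strand: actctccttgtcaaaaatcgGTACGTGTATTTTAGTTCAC
Ddx46-202, exons 12 and 13 joined: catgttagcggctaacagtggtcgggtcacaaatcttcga
Ddx46-204, start of the intron at chr13:55659099-55660716, plus strand: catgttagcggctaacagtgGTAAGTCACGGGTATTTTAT
In all 4 genes the coding sequence runs across the joint, and the intron starts with GT. Among helicase transcripts above 0 TPM that are not protein-coding, 35 transcripts of 20 genes held 49 whole introns. An intron held by different transcripts is counted for each, as with intron 5 of Ddx23 and intron 22 of Ddx11. All 49 started with GT and ended with AG, and their lengths ran between 77 and 2705 bases with a median of 330. These letters and lengths are properties of the annotated models and not results of these libraries. The same letters were not counted over all annotated introns.

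Ddx5, a coregulator of transcription that also acts in splicing and microRNA processing, had the highest level of the family, and a transcript with a retained intron was its most abundant. That transcript, Ddx5-208, held 58.9% of the TPM of Ddx5 in replicate 1 and 51.3% in replicate 2, but 48.6% and 34.7% in the other quantification deposited for the same libraries, the second tables described below. The gene (chromosome 11, 106780355 to 106789185, minus strand) stood at 530 TPM in replicate 1 and 556 in replicate 2 (543 ± 18.2 TPM, mean ± SD, n = 2), above 99.7% of detected protein-coding genes. Ddx5-208, which the annotation places in the class of nonsense-mediated decay, had 312 and 285 TPM. Ddx5-201, the main coding transcript, had 150 and 179 TPM. The order of these transcripts was the same in both libraries, and their values did not overlap. In expected counts, Ddx5-208 held 23619 and 13936 and Ddx5-201 held 11238 and 8677. Both transcripts are nearly the same length, 3593 and 3559 bases, so division by length moves them alike.

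Ddx5-208 has 12 exons and Ddx5-201 has 13, because intron 11 of 12, of 1265 bases, lies inside an exon of Ddx5-208. The intron is not their only difference, since Ddx5-208 is nearly the same length, 3593 against 3559 bases, although it includes the intron. It therefore lacks part of the exon bases of Ddx5-201, and the division of reads between these transcripts rests on that difference too. The class of nonsense-mediated decay held 59.0% of the TPM of Ddx5 in replicate 1 and 51.3% in replicate 2, the coding class 32.4% and 40.6%, and the class annotated as retained intron 2.73% and 2.85%. A reading by class names alone thus places little retained intron in Ddx5, whereas transcripts with at least 100 bases inside introns of Ddx5-201 held 67.5% and 59.4%. The shorter Ddx5-202, of the retained intron class, holds intron 10 whole (chr11:106784019-106784100, 82 bases) and had 14.5 and 15.9 TPM. These values are estimates that divide reads among overlapping models. Unspliced precursor RNA has no entry of its own in the tables, so its reads and those of intron-bearing transcripts cannot be told apart.

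**Figure D1:**
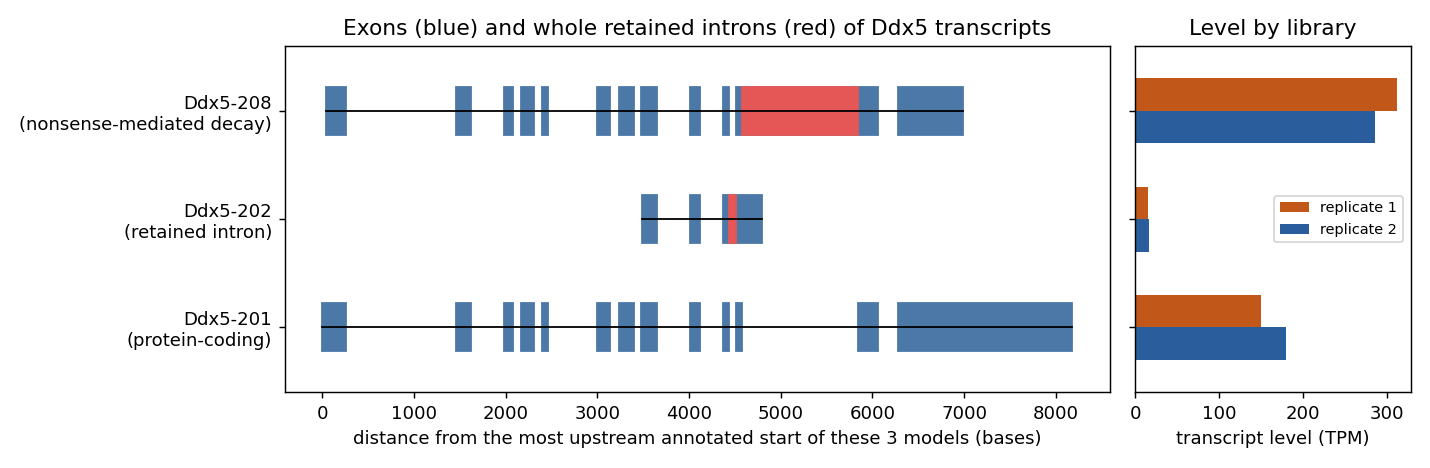
Exon maps of 3 Ddx5 transcripts (left, distance in bases from the most upstream start, transcription left to right, exons blue, whole retained introns red) and their TPM in replicate 1, and replicate 2 (right). Ddx5-208, with the intron of 1265 bases, stands at 312 and 285 TPM, above Ddx5-201 at 150 and 179 TPM in both libraries.

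The same intron holds a microRNA gene at its end. Mir3064 (chr11:106782693-106782759, minus strand) is 67 bases long, of which 66 lie in intron 11 and the last lies in exon 12, so the last base of the 3p strand is the A of the AG shown above. Its mature sequences, from RefSeq on GRCm38.p6, are given with the seed, bases 2 to 8, in capitals.
mmu-miR-3064-5p: uCUGGCUGuuguggugugcaaa
mmu-miR-3064-3p: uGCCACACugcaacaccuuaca
Mir3064 was listed at 0 counts in both libraries, with an effective length of 0, and so was Gm25994, a second annotated microRNA gene of 101 bases that lies wholly in the same intron. An effective length of 0 leaves no place for a fragment to be assigned, so these zeros are no measure of either microRNA. The 31-base words of the coding transcripts of Ddx5 were shared with other genes for 28.4%, and 28.1% were shared with the processed pseudogene Gm12183. That pseudogene had 38.2 counts in replicate 1 and 107 in replicate 2, against 35730 and 23380 for Ddx5.

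Of the 49 helicases, 46 were detected, against 46.0% of 22028 protein-coding genes. Germ cell members made up the remainder. Ddx4, the Vasa homologue of the germ line, had 0.26 TPM in replicate 1 and 0.22 in replicate 2, from 16 and 9 counts, with deposited intervals of 0.157 to 0.414 and 0.116 to 0.412 TPM. Ddx43 had 1 count in replicate 1 and 0 in replicate 2, where 3 counts would be 0.104 TPM. Ddx25, a testis helicase, was at 0 in both libraries, where 3 counts would be 0.0199 TPM in replicate 1 and 0.0309 in replicate 2. The 3 germ cell genes Dazl, Sycp3 and Mael were not detected either. These limits cover counting error only.

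The middle of the family was close to that of all detected protein-coding genes, and a few members stood far above it. The median over every member was 9.52 TPM in replicate 1 and 9.91 in replicate 2, and 23 of 49 were above the median of 10123 detected protein-coding genes, 10.5 TPM. The detected members alone had a median of 10.4 TPM. At 10 TPM in both libraries there were 21 members, and at 50 TPM there were 7. Ddx5 alone held 34.7% of the summed TPM of the family in replicate 1 and 34.9% in replicate 2, and the 3 highest members held 56.0% and 55.1%. Ddx5, Ddx17, Ddx39b and Dhx15 followed each other without overlap between their library values. Of the 45 neighbouring pairs in rank, 34 overlapped, so most of the order below the highest members is not resolved by these libraries. Between libraries the coefficient of variation had a median of 9.81% over detected members, against 11.6% over detected protein-coding genes.

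**Figure D2:**
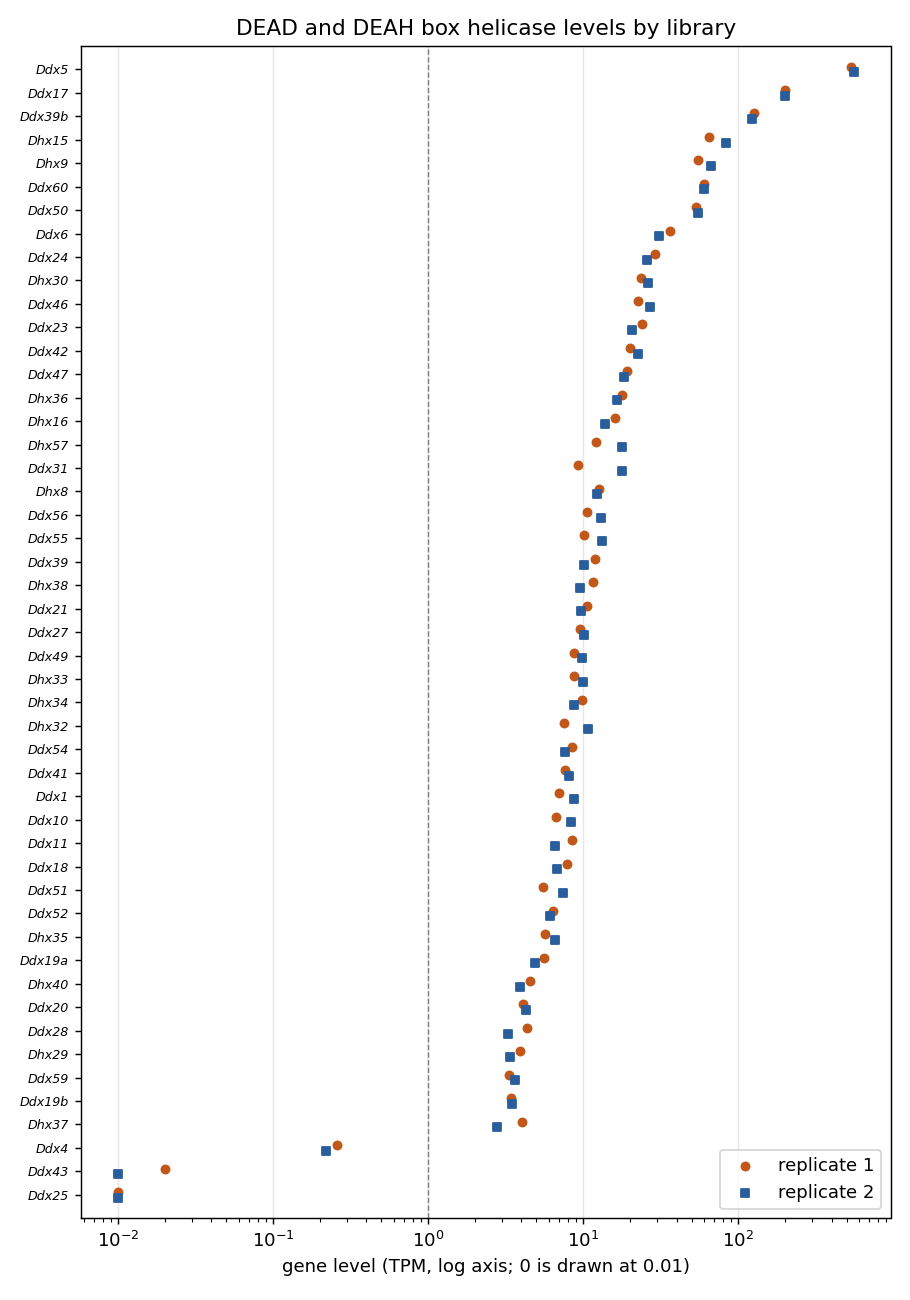
TPM of each of the 49 helicases (log axis, a level of 0 drawn at 0.01, ordered by mean) in replicate 1 (circles) and replicate 2 (squares), with the detection limit of 1 TPM dashed. Levels fall steeply across the 7 highest members, all above 50 TPM, and the 3 germ cell helicases stand apart below 1 TPM.

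Helicases of transcription and nuclear RNA regulation were all detected, 6 of 6, with a median of 39.2 TPM. Ddx17, the close relative and partner of Ddx5, had 200 TPM in both libraries, 199.9 and 200.2. Its 4 transcripts are all annotated as coding, and Ddx17-202, Ddx17-204, Ddx17-203 and Ddx17-201 had 67.0 and 64.4, 54.6 and 65.9, 45.5 and 41.2, and 32.8 and 28.8 TPM. No single transcript of Ddx17 dominated, and the annotation gives no retained intron transcript that could take reads there.

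Dhx9, which unwinds RNA duplexes and RNA-DNA hybrids, had 55.3 TPM in replicate 1 and 67.2 in replicate 2. Its coding class held 47.4 ± 1.97%, the retained intron class 28.5 ± 3.90% and the class of nonsense-mediated decay 24.1%. In this last class, Dhx9-209 had 12.2 and 16.7 TPM and holds intron 17 whole (chr1:153464713-153464854, 142 bases). Dhx9-206 and Dhx9-205, both of the retained intron class, hold introns 5 and 2 whole and had 7.19 and 7.37 TPM, and 5.74 and 5.65 TPM. Dhx36, which resolves G-quadruplexes, had 17.9 and 16.4 TPM. Ddx1, of the tRNA ligase complex, had 7.01 and 8.67 TPM, and Ddx20, a subunit of the SMN complex that assembles small nuclear ribonucleoproteins, had 4.09 and 4.27 TPM, the lowest of the group.

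The spliceosomal helicases were all detected, 9 of 9, with a median of 14.9 TPM and means between 6.11 and 74.2 TPM. Dhx15, which takes apart the spliceosome after splicing, was the highest of them at 65.0 TPM in replicate 1, against 83.3 TPM in replicate 2. Its share of coding TPM was 47.3% in replicate 1 and 33.5% in replicate 2, and its retained intron share was 46.1% and 37.3%. Dhx15-204, with intron 9 of 13 (471 bases, shown above), had 16.6 and 17.2 TPM. Dhx15-207, of the class of nonsense-mediated decay and without intron bases, had 4.28 and 24.3 TPM. The level of Dhx15-204 was nearly equal in both libraries, and Dhx15-207 was far lower in replicate 1.

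Ddx46, the Prp5 homologue that prepares the U2 particle for the branch site, had 22.7 TPM in replicate 1 and 26.8 in replicate 2. Ddx46-204, of the retained intron class, had 10.6 and 12.3 TPM and holds intron 12 of 22 (1618 bases, shown above). The coding Ddx46-202 had 11.1 and 9.05 TPM, so the order of these transcripts differed between libraries. Another coding transcript, Ddx46-203, had 0 and 3.58 TPM. By class the order was the same in both libraries, with 53.1% and 54.2% coding against 46.9% and 45.8% retained intron. Ddx23, the Prp28 homologue of the tri-snRNP, had 24.1 and 20.7 TPM, with a retained intron share of 49.0 ± 4.01%. Ddx42, linked to the U2 particle, had 20.1 and 22.4 TPM and no annotated retained intron transcript. Dhx16, Dhx38 and Dhx8, the homologues of Prp2, Prp16 and Prp22, had 16.0 and 13.8, 11.6 and 9.57, and 12.7 and 12.2 TPM. Ddx41 and Dhx35 were the lowest of the group, at 7.67 and 8.10 TPM and at 5.68 and 6.54 TPM.

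Among the 4 helicases of mRNA export, all detected, Ddx39b stood alone at 126 TPM in replicate 1 and 123 in replicate 2, against means of 3.44 to 11.0 TPM for the others. Ddx39b loads export factors onto spliced mRNA and also acts in early spliceosome assembly. Its highest transcript, Ddx39b-204, is of the retained intron class and had 60.7 and 57.6 TPM, above the coding Ddx39b-201 at 46.9 and 50.6 TPM. Ddx39b-204 has 801 bases in introns of Ddx39b-201 but holds no intron whole. Ddx39, its close relative, had 11.9 and 10.1 TPM. Ddx19a and Ddx19b, which release proteins from mRNA at the nuclear pore, had 5.63 and 4.91 TPM and 3.41 and 3.46 TPM. Ddx19a shared 37.5% of its 31-base words with Ddx19b, so their separate levels depend on how shared reads were divided.

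Ribosome biogenesis was the largest group, 16 members, all detected, with a median of 9.57 TPM. Ddx50, a nucleolar helicase, had 53.7 TPM in replicate 1 and 54.8 in replicate 2, and Ddx24 had 29.0 and 25.8 TPM. Ddx21, the neighbour and close relative of Ddx50, had 10.6 and 9.75 TPM. The lowest detected member of the family by mean, Dhx37, which releases the U3 small nucleolar RNA during assembly of the small subunit, had 4.01 and 2.78 TPM. The 2 helicases of the mitochondrial ribosome differed in level, Dhx30 with 23.5 and 26.3 TPM and Ddx28 with 4.33 and 3.27 TPM.

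RNA of members that act mainly on mRNA in the cytoplasm was also present in the nuclear fraction, which does not show where their proteins are. Ddx6, of translational repression and mRNA decay, had 36.4 TPM in replicate 1 and 31.1 in replicate 2. Dhx34, of nonsense-mediated decay, had 9.90 and 8.72 TPM, and Dhx29, of translation initiation, had 3.92 and 3.36 TPM. Ddx60, an interferon-inducible antiviral factor, had 60.6 and 60.1 TPM and was the sixth member in rank. Its retained intron share was 21.7 ± 0.0644%, with most of it in Ddx60-203 at 12.1 and 12.3 TPM, which holds intron 34 of 37 (1551 bases, shown above). Transcripts of any class with at least 100 bases inside introns of Ddx60-201 held more, 49.1% in replicate 1 and 44.4% in replicate 2. Ddx11, a DNA helicase of sister chromatid cohesion, had 8.45 and 6.62 TPM. Members with no role assigned, Ddx59, Dhx32, Dhx40 and Dhx57, were all detected with a median of 6.67 TPM.

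Coding transcripts held 55.6% of the summed TPM of the family in replicate 1 and 56.2% in replicate 2 (55.9 ± 0.430%), against 72.5 ± 0.675% for all detected protein-coding genes. With Ddx5 included, the retained intron class did not account for the gap. It held 19.3 ± 0.0743% in the family and 19.8 ± 0.218% in the detected protein-coding genes. The gap lay in the class of nonsense-mediated decay, 21.6 ± 0.718% against 2.52 ± 0.247%, and that class was mostly Ddx5. Without Ddx5 the family had 66.2 ± 2.35% coding, 28.1 ± 0.126% retained intron and 3.77 ± 1.68% nonsense-mediated decay TPM. The gap that remained in TPM thus lay mainly in the retained intron class. In expected counts without Ddx5, coding held 79.5 ± 1.49%, against 79.9 ± 0.925% for detected protein-coding genes, and retained intron 17.2 ± 0.153% against 15.2 ± 0.487%. By bases rather than class names, transcripts with at least 100 intron bases held 44.4 ± 1.82% of the TPM of the family, 34.2 ± 0.166% without Ddx5, against 25.6 ± 0.0898% for detected protein-coding genes.

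The annotation sets how much retained intron a gene can show. Of the 270 transcripts, 125 are coding, 94 retained intron, 18 nonsense-mediated decay and 32 processed transcripts. A retained intron transcript is annotated for 38 of 46 detected members, against 62.5% of detected protein-coding genes. Among single detected members the median retained intron share was 25.1%, against 15.8% for detected protein-coding genes. Where such a transcript is annotated, the medians were 29.3% and 32.5%, so the higher share of the family was not seen among genes that have such a transcript. Of the 94 retained intron transcripts, 31 hold an intron of the gene's most abundant coding transcript whole, 33.0% against 28.1% over detected protein-coding genes, and 78 have at least 100 intron bases. The share was 0 in both libraries for 9 detected members, of which 8 have no such transcript annotated. These were Ddx17, Ddx42, Ddx31, Ddx10, Ddx52, Dhx40, Ddx28 and Ddx19b, and Ddx18 was the other.

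More retained intron than coding TPM, by the mean of both libraries, was found in 7 of 46 detected members, a share near the 18.0% of all detected protein-coding genes. Ddx49, a nucleolar helicase, had the highest share, 74.3% in replicate 1 and 84.2% in replicate 2, against coding shares of 25.7% and 15.8%. Ddx50 had 64.6% and 76.4% retained intron. Ddx50-204, a single exon of 2681 bases with 2532 in introns, was its highest transcript at 10.6 and 14.8 TPM, beside the coding Ddx50-201 at 10.5 and 9.20 TPM. Ddx11 had 70.9% and 66.8%. In these 3 members the retained intron class also held more expected counts than the coding class by the mean of both libraries, which no other detected member showed. In replicate 2 alone Ddx39 was nearly balanced, with 37.5% retained intron and 37.1% coding counts.

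The other members with more retained intron than coding TPM were closer to balance or had short transcripts. Ddx54, a nucleolar helicase, had 54.3% in replicate 1 and 67.0% in replicate 2, and Ddx39 had 50.4% and 57.1%. Dhx15 and Ddx56 did not keep the order in both libraries. For Ddx56, of the large ribosomal subunit, the share was 46.4% in replicate 1 and 53.7% in replicate 2. Ddx39-206, coding, and Ddx39-207, of the class of nonsense-mediated decay, have the same annotated sequence of 3836 bases and the same values, 1.74 and 1.38 TPM each, so the division of Ddx39 between these classes is not a measurement.

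**Figure D3:**
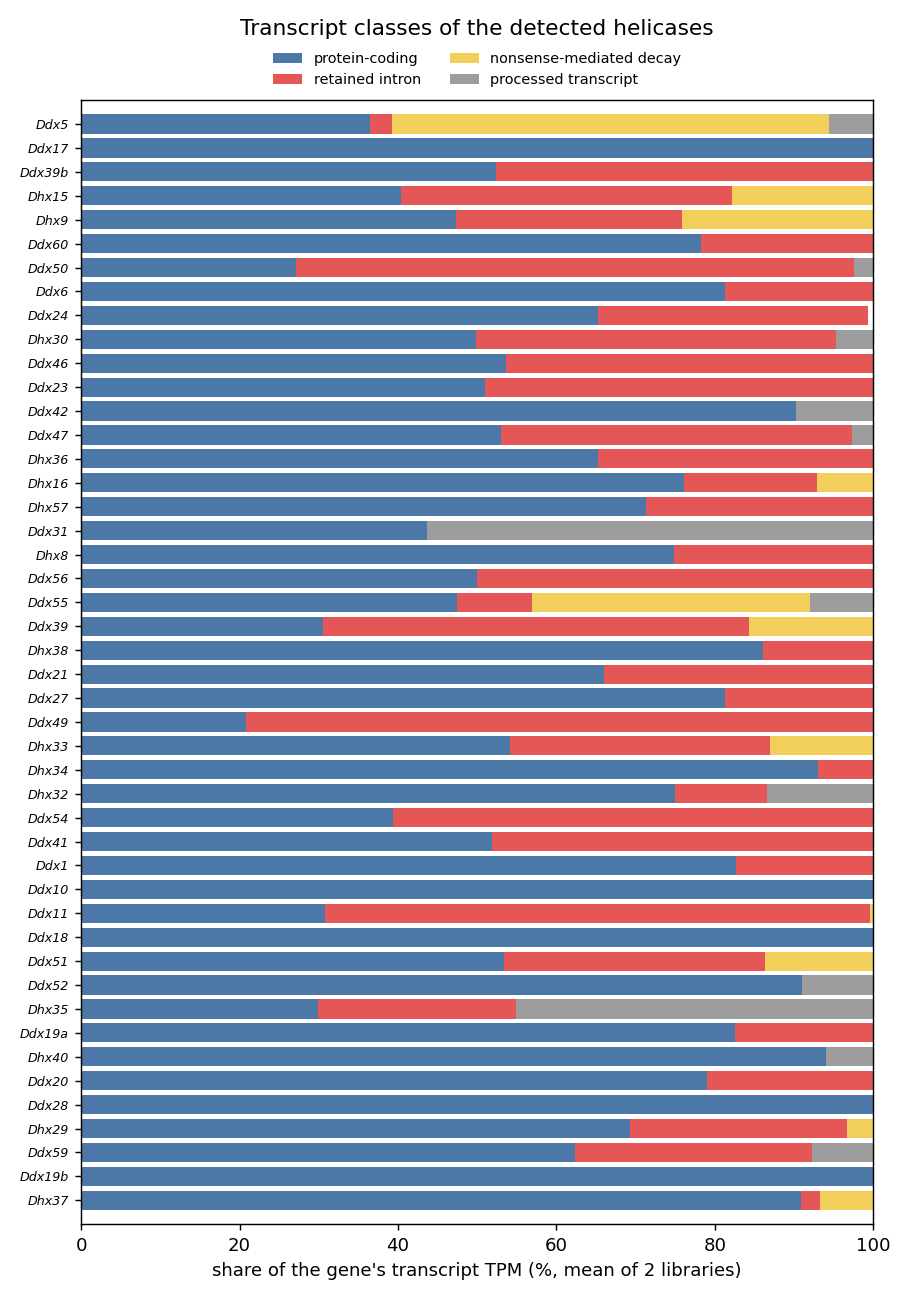
Share of each detected helicase's transcript TPM (%, mean of both libraries) in protein-coding, retained intron, nonsense-mediated decay and processed transcripts, with the members ordered by level from the highest at the top. Ddx5 is the member with most of its TPM in nonsense-mediated decay transcripts, and Ddx49, Ddx50 and Ddx11 have the longest retained intron bars at 79.2%, 70.5% and 68.8%.

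The highest transcript by mean TPM was not protein-coding in 8 of 46 detected members, a share near the 17.9% of all detected protein-coding genes. Of these, 6 were of the retained intron class, in Ddx39b, Ddx50, Ddx46, Ddx39, Ddx49 and Ddx11. Ddx5-208 was of the class of nonsense-mediated decay and Ddx31-202 was a processed transcript. Ddx31, of ribosome biogenesis, had 9.33 TPM in replicate 1 and 17.7 in replicate 2 from 400 and 324 counts. The coding Ddx31-201, of 3271 bases, had 5.32 and 5.39 TPM. Ddx31-202, of 640 bases, had 2.99 and 9.55 TPM from 27.7 and 59.0 counts, Ddx31-203 had 0 and 2.55 TPM, and Ddx31-204 had 1.02 and 0.23 TPM.

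Several of these members share exonic sequence with other genes. The strand setting of the counting is not given in the sources used here. Expected counts show that some reads were divided between genes on opposite strands. In replicate 1 Ddx49 had 247.09 and Homer3 had 636.91, which together make a whole number. The same held in replicate 2, and in both libraries for Ddx39 with Adgre5, Ddx54 with Gm43579 and Dhx32 with Bccip. Exons overlap an exon of a gene on the opposite strand in 11 of 49 members. Ddx49 shared 37.5% of its 31-base words with Homer3, on the opposite strand, which had 18.4 TPM in replicate 1 and 18.2 in replicate 2, above Ddx49 itself at 8.79 and 9.87 TPM. Ddx39 shared 17.4% with Adgre5, on the opposite strand at 59.3 and 44.4 TPM, and Ddx54 shared 16.2% with the antisense gene Gm43579 at 1.19 and 1.53 TPM. Dhx32 shared 4.9% with Bccip, on the opposite strand at 14.5 and 19.7 TPM. Levels and shares of Ddx49, Ddx39, Ddx54 and Dhx32 are uncertain for that reason. Ddx18 shared 67.6% with the processed pseudogene Gm16433, which held 2.55 and 0 counts against 356 and 188 for Ddx18. Expected counts were whole in both libraries for 39 of 49 members, to within 0.005. Neither this count nor that of opposite-strand overlaps was made over all genes.

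Retained intron shares were lower in expected counts than in TPM, which divides by length. The retained intron transcripts of the family have a median length of 772.5 bases, against 2821 for its coding transcripts. The retained intron class held 11.2 ± 0.114% of the family's expected counts, against 15.2 ± 0.487% for detected protein-coding genes, and the coding class 63.8 ± 0.728%, against 79.9 ± 0.925%. Without Ddx5 these were 17.2 ± 0.153% and 79.5 ± 1.49%, so the lower values of the family rest on Ddx5. In 36 of 37 detected members with such TPM the share was lower in counts, with Dhx35 the exception at 33.9% of counts and 25.0% of TPM. Over detected protein-coding genes the class was also lower in counts, 15.2% against 19.8% of TPM. Single genes with a lower share were not counted there. Ddx21 is a clear case, with 34.0% of TPM and 3.34% of counts, and Ddx51 had 33.0% of TPM and 2.32% of counts. Ddx49, Ddx50 and Ddx11 stayed at 65.8%, 66.9% and 60.4% of counts.

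All values so far are from the first tables deposited, apart from the shares of Ddx5-208 given above for the other quantification. The second tables, a separate quantification of the same libraries, gave a higher retained intron share in 29 of 38 members. For the family the share was 25.0 ± 1.20%, with 47.9 ± 0.279% coding. Detected protein-coding genes moved the same way, to 22.6 ± 0.166% retained intron and 62.6 ± 0.695% coding, from 19.8% and 72.5% in the first tables. The number of single genes with a higher share was not counted over all genes. The largest gap was in Dhx16, 85.5% in the second tables and 16.8% in the first. Dhx16-202, a retained intron transcript of 825 bases, had 19.6 and 71.3 TPM in the second tables, against 1.21 and 0.96 TPM in the first. Dhx29 had 69.2% in the second tables and 27.4% in the first. Ddx18, at 0 in the first tables, had 23.2% in the second. For Ddx5 the class of nonsense-mediated decay held 54.1% in the second tables and 55.1% in the first, but its transcripts differed. Ddx5-208 held 48.6% of Ddx5 in replicate 1 and 34.7% in replicate 2 of the second tables, and was again above Ddx5-201 in both libraries (125 and 175 TPM against 50.9 and 89.0 TPM). Ddx5-205, a transcript of the same class without intron bases, had 30.0 and 67.0 TPM in the second tables, against 0.63 and 0 TPM in the first.

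**Figure D4:**
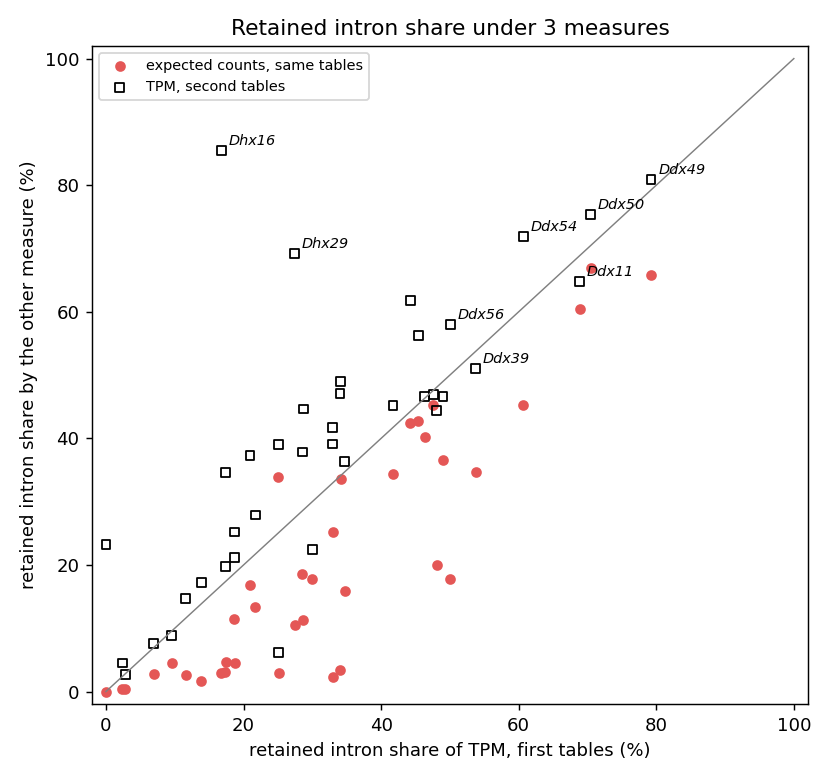
Retained intron share (%) of the 38 detected helicases with such a transcript annotated, for expected counts of the first tables (filled circles) and TPM of the second tables (open squares), against the share of TPM in the first tables, with the line of equality. All circles but Dhx35 lie on or below the line, and Dhx16 and Dhx29 are far above it in the second tables.

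Levels by gene were lower in the second tables for 41 of 46 detected members. The median ratio of the second to the first TPM was 0.570 in replicate 1 and 0.820 in replicate 2, close to 0.587 and 0.855 over detected protein-coding genes. Dhx16 moved most against this, with 27.3 and 81.0 TPM in the second tables, 3.63 times its mean in the first. Dhx35 had 12.8 and 15.2 TPM, 2.29 times, of which 8.23 and 7.65 TPM were in Dhx35-203, a processed transcript of 328 bases listed at 0 in the first tables. Dhx29 followed at 1.28 times. At the other end were Ddx28 at 0.495, Dhx33 at 0.521 and Ddx17 at 0.525 times.

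The libraries were compared on expected counts scaled by TMM, a normalisation that assumes most genes do not differ, as the log2 ratio of replicate 1 over replicate 2 with a pseudocount of 1. With 1 library on each side the comparison has no test and is between libraries, not conditions. The median over 46 helicases was -0.10, against -0.00 over all 11526 genes with a mean of at least 50 scaled counts. A lower level in replicate 1 was found for 32 of 46 members, against 50.6% of all genes tested, and 14 were higher. None of the 46 was more than 2-fold apart, against 1.93% of all genes. The lowest were Ddx31 and Ddx10 at -0.44 and Dhx15 at -0.43, close to the 5th percentile of all genes at -0.46. The highest were Dhx38, Ddx28 and Ddx54 at 0.28, inside the 95th percentile at 0.62.

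By role, all 6 members of transcription and nuclear RNA regulation were lower in replicate 1 by scaled counts, with a median of -0.12 and Dhx9 at -0.41, but by log2(TPM + 1) relative to the median gene 5 were lower and Dhx36 was at 0.01. By scaled counts, all 3 of translation and mRNA decay were at or above 0.02. Ribosome biogenesis had members on both sides of 0, with a median of -0.14. The RNA input, the depth and the summed macrophage markers and nuclear RNAs given above also differed between the libraries, and their part in these ratios was not tested.

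**Figure D5:**
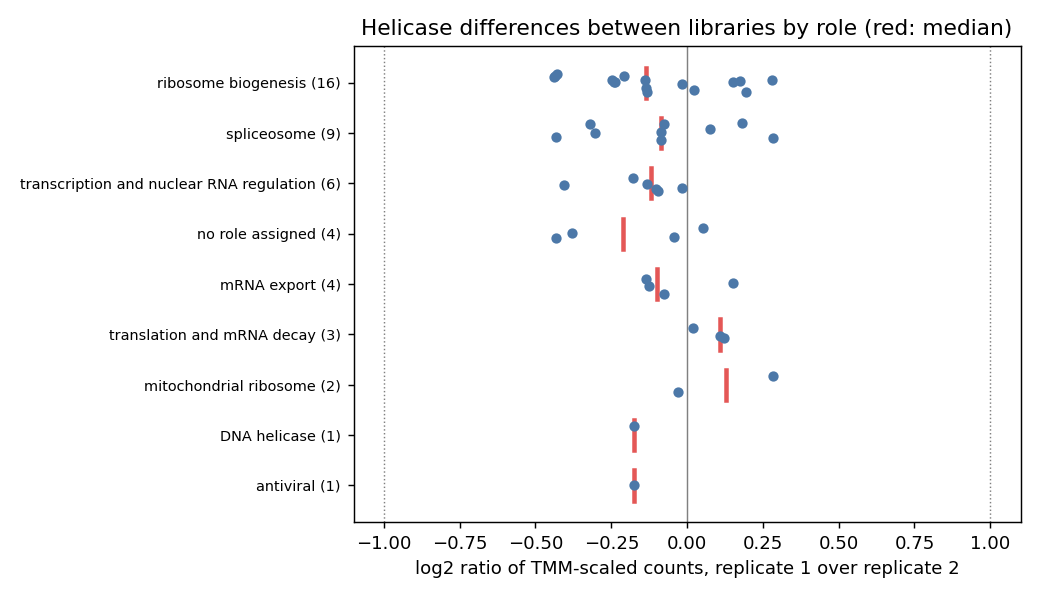
Log2 ratio of TMM-scaled counts, replicate 1 over replicate 2, for the 46 helicases tested, by role with the number of members in brackets, where points are genes (spread vertically only to separate them), red bars are medians and dotted lines mark 2-fold. All points lie between -0.44 and 0.28, with 32 below 0.

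Single transcripts were further apart than their genes. Of 103 helicase transcripts with a mean of at least 50 scaled counts, 9 were more than 2-fold apart, a share near the 11.6% of transcripts of all protein-coding genes, with 7 lower and 2 higher in replicate 1. Ddx46-203, coding, had 0 counts in replicate 1 and 280 in replicate 2. Dhx15-207 had 207 and 760 counts, a log2 ratio of -2.61, while Dhx15 as a gene was at -0.43. Dhx9-202, Ddx39b-202, Ddx5-206, Ddx5-204 and Ddx50-206 were also lower in replicate 1, between -1.70 and -1.08. Higher in replicate 1 were Ddx6-201 at 2.96 and Dhx16-207 at 1.79. Ddx5-208 was at 0.02 and Ddx5-201 at -0.37, so the intron-bearing Ddx5-208 differed little between the libraries.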

How the data were processed

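Each library came with 3 deposited tables, 1 of genes and 1 of transcripts (the first tables) and another of transcripts (the second tables). Per the file headers and the deposited notes, the first tables rest on alignments to the transcriptome, with mm10 and GENCODE M21, and the second on reads with that annotation. Which programs made them is not given in the sources used here, and the column names are those that RSEM and kallisto write. Expected counts, as deposited, are estimates that need not be whole. TPM, as deposited, is scaled over all entries of a table. The authors' interval bounds for TPM, a non-negative signal, were printed for Ddx4.

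Members were chosen by symbol and joined by gene identifier. The members and lists were chosen with earlier results of these data known. Any member could be named, with set numbers by level, role, retained intron share and difference. Entries that name no gene, 1.18% of replicate 1 and 0.405% of replicate 2 by counts, were left out. Counts were rounded and scaled by TMM (edgeR 4.0.16, R 4.3.3), and ratios used a mean of at least 50 scaled counts and a pseudocount of 1. The ratio and the 2-fold count were also run on simulated counts with counting error only and planted changes in 200 genes. That run used the scaling factors of the real libraries, so it does not test the scaling. DESeq2 1.42.0 gave size factors for an alternative. Transcript classes are those of the annotation. Intron bases were counted against introns of the gene's most abundant coding transcript, which in Dhx30 is only 368 bases long, and that measure was added after seeing the data. Shared words are 31-base words of coding transcripts, either strand, found in transcripts of another gene. Calculations used Python 3.11.15, numpy 2.4.6, pandas 2.3.3 and scipy 1.17.1. No p-value was computed, since the libraries form 1 group. Without molecular identifiers, reads are not independent molecules.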

Additional observations from a re-analysis of the deposited data

Results flagged for a closer look

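RNA genes inside helicase genes had signal in the second tables, which the levels above do not use, although the first tables list them at 0 counts. Inside Ddx39b, Mir8094 had 83.2 estimated counts in replicate 1 and 64.8 in replicate 2, the small nucleolar RNA gene Gm25128 had 20 in each library, and Mir6975 had 6 in each. Inside Ddx19b, Mir3473d had 12 and 13 estimated counts. Inside Dhx30, Gm27855, annotated as a miscellaneous RNA, had 6 and 8.29. The first tables give Mir8094, Gm25128, Mir6975 and Mir3473d an effective length of 0 in both libraries, and Gm27855 one of 0 in replicate 1 and 1.03 in replicate 2. Their 0 counts in the first tables are therefore no measure of these genes, and the difference between the tables is not evidence of a level. Of the 117 bases of Mir8094, 27 lie in the nearest intron of Ddx39b-201 and the others overlap its exons, so reads of Ddx39b and of Mir8094 cannot be told apart there. Gm25128 lies in intron 5, Mir6975 in intron 2 of Ddx39b-201 and Mir3473d in intron 5 of Ddx19b-201.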

How the results depend on the processing

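The count of detected helicases, 46, was between 38 (at 5 TPM) and 47 (at 0.1 TPM) under the alternatives, and the count past 2-fold between libraries was 0 under each alternative run for it. By log2(TPM + 1) relative to the median gene, Ddx31 was at -0.96, just inside 2-fold. The median difference between libraries ran between -0.11 and -0.05, with 29 to 33 members lower in replicate 1. Levels and shares moved. The median level of 9.80 TPM became 7.37 in the second tables, 10.4 over detected members and 19.9 where TPM was rescaled without the 10 highest and the mitochondrially encoded genes, and replicate 1 alone gave 9.52 and replicate 2 alone 9.91. The coding share of 55.9% became 55.1% with posterior mean TPM, 47.9% in the second tables, 63.8% in expected counts, 65.6% as the median of single members and 66.2% without Ddx5. The retained intron share of 19.3% became 19.8%, 25.0%, 11.2%, 25.1% and 28.1% under the same alternatives, and 44.4% for transcripts of any class with at least 100 intron bases. Members with more retained intron than coding TPM, 7, became 12 in the second tables and 3 in expected counts, with 5 in replicate 1 alone and 9 in replicate 2 alone. Members whose highest transcript was not coding, 8, became 16 in the second tables. Transcripts past 2-fold, 9, became 29 with a mean of at least 10 counts and 14 in the second tables. The cause of these moves was not tested, other than the removal of Ddx5. Leaving out a library gives no difference between libraries. No paired analysis was possible because there is 1 group.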

Other observations

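RNA of helicases with other symbols was also present in this nuclear fraction. Of 16 on a list, 15 were detected. Eif4a2 and Eif4a1, translation factors of the DEAD box family, had 206 TPM in replicate 1, with 230 TPM in replicate 2, and 176 and 154 TPM. Eif4a2 was above Ddx17 in both libraries, and Eif4a1 lay between Ddx17 and Ddx39b. Their relative Eif4a3, of the exon junction complex, was far lower at 17.2 and 15.2 TPM. Snrnp200, the helicase that unwinds U4 from U6 in the spliceosome, had 20.2 and 17.0 TPM, and Mtrex, the helicase of the nuclear exosome, had 16.1 and 15.4 TPM. Upf1, of nonsense-mediated decay, had 15.7 and 12.5 TPM. Tdrd9, a helicase of the germ line, was listed at 0 in both libraries, like Ddx25, and Dqx1 was the lowest detected at 1.58 and 1.47 TPM. The list was chosen with earlier results of these data known.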
